A study of Mus musculus with 16 samples.

Results

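The cytosolic ribosomal protein genes of the mouse were followed through 16 microarrays of subchondral bone, the bone plate under the joint cartilage. A gene was a member when its array name had the form Rpl or Rps followed by a number with at most a short suffix, or was Rpsa, Rplp0, Rplp1 or Rplp2, and when its probe was well above background on at least 4 arrays. All 84 such genes on the array passed, 51 of the large and 33 of the small ribosomal subunit, among 28276 gene names tested. They were carried by 182 probes, 181 of which passed, and the brightest probe by mean stood for each gene. A total of 82 members were above background on all 16 arrays. The members nearest the limit were Rpl37 and Rpl3l, on 13 arrays each, and no member fell outside it.

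The animals were male wild-type C57BL6 mice of 10 to 12 weeks at surgery, operated on both knees. In DMM (destabilization of the medial meniscus) the medial ligament that ties the meniscus to the tibia was cut, which leads to osteoarthritis, and in sham surgery the same ligament was exposed and left whole. Joints were taken 1 or 6 weeks later, giving 4 groups of 4 arrays: sham and DMM at 1 week, sham and DMM at 6 weeks. Bone of the medial tibial plateau was cut by laser from 10 µm frozen sections and pooled per joint, 100 ng of RNA was labelled with Cy3, and each array holds 1 joint of 1 mouse, the other joint having gone to histology. The arrays sat on 2 slides with 2 arrays of each group on each, and the replicate numbers follow the order of the records and pair nothing. In such bulk tissue, fewer cells of a type and less RNA per cell cannot be told apart.

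Each ribosome joins a small subunit, which reads the messenger RNA, to a large subunit, which forms the peptide bonds, and both are built from ribosomal RNA and a fixed set of proteins. Since these are needed in equal amounts, their genes are usually expressed together, and most of their mRNAs begin with an unbroken run of C and T bases, the 5′ terminal oligopyrimidine (TOP) tract, through which mTOR signalling and the protein LARP1 control their translation. Marrow cells that divide quickly, above all red cell precursors, depend strongly on ribosome supply, and mutations in several members cause Diamond-Blackfan anaemia. A few members are paralogs used in particular tissues, such as Rpl3l of skeletal and heart muscle and Rpl10l and Rpl39l of the testis.

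The start of the gene is shown first, because the TOP tract described for most of these mRNAs would lie there. Promoter windows of RefSeq on GRCm38.p6, 250 bases before to 50 after each listed start, were at hand for 63 of the 84 members. On the transcribed strand, a C at the listed start followed without a break by C or T, at least 5 bases in all, was found at a listed start of 13 of these 63 members (20.6%), 7 of 39 large and 6 of 24 small subunit genes. The same tract stood at a listed start of 813 of all 27025 genes in the table (3.0%), members included. Listed starts need not be those used in bone, and a missing tract says only that these letters were not there. The following 40 bases before and 15 from the start have the tract in capitals. They show 5 members with a tract beside Rpl5, which had none at its listed start.
Rpl15, chr14:18270972-18271026, minus strand: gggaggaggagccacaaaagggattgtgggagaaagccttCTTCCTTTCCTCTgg
Rpl38, chr11:114668540-114668594, plus strand: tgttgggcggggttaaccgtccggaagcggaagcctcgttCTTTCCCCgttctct
Rps6, chr4:86857353-86857407, minus strand: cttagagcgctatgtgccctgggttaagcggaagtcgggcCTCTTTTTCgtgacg
Rps10, chr17:27635230-27635284, minus strand: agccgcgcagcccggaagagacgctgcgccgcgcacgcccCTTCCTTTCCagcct
Rps18, chr17:33955651-33955705, minus strand: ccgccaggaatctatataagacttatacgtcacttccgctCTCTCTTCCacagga
Rpl5, chr5:107900488-107900542, plus strand: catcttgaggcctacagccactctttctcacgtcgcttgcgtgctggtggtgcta
The tracts of the 13 genes were 5 to 13 bases long, with that of Rpl15 the longest.

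Every value below is a log2 intensity minus the 75th percentile of its array, so that 0 is the level of a probe at that percentile, and levels of different genes are not set against each other. The arrays differed in brightness, with a 75th percentile of 332 to 883 intensity units, and the share of probes well above background lay between 65.1% and 79.5%. No spot was saturated. Replicate 2 of the 6-week sham group was the dimmest (332, next 477) and stood apart from the other arrays in the members' values, so values that it moves are also given without it. The members varied less between arrays than most genes: their median residual SD was 0.26, against 0.43 over all genes and 0.33 over 256 other genes as bright as the middle of the members. The median standard error of a difference of 4 against 4 arrays was 0.20 for members.

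Most ribosomal protein genes were high or low on the same arrays. Averaged over the 84 members, an array's deviation from each gene's own mean over 16 arrays ran from -0.49 in replicate 2 of the 6-week sham group to 0.40 in replicate 1 of the 6-week DMM group. In the 1-week sham group the deviations were -0.18, -0.28, -0.02 and -0.03, and in the 1-week DMM group -0.17, -0.25, 0.18 and 0.08. In the 6-week sham group they were 0.02, -0.49, 0.21 and 0.21, and in the 6-week DMM group 0.40, 0.10, 0.10 and 0.12. The groups overlapped at both times, and all 4 arrays of the 1-week groups on slide 1 (replicates 1 and 2) lay below 0. In replicate 1 of the 6-week DMM group 81 of 84 members lay above their own mean, and in replicate 2 of the 1-week sham group 81 lay below it.

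The large and the small subunit went together on every array. The mean deviation of the large subunit minus that of the small one lay between -0.06 and 0.10 on all 16 arrays, while the mean of all members spanned 0.89. The gap averaged -0.005 ± 0.040 (SD, n = 4) in sham and 0.011 ± 0.033 in DMM bone at 1 week, and -0.020 ± 0.033 and 0.014 ± 0.058 at 6 weeks. At each time the 2 means differed by less than the larger of the 2 SDs. In replicate 2 of the 6-week sham group, the array with the lowest members, the subunits stood at -0.493 and -0.490.

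**Figure D1:**
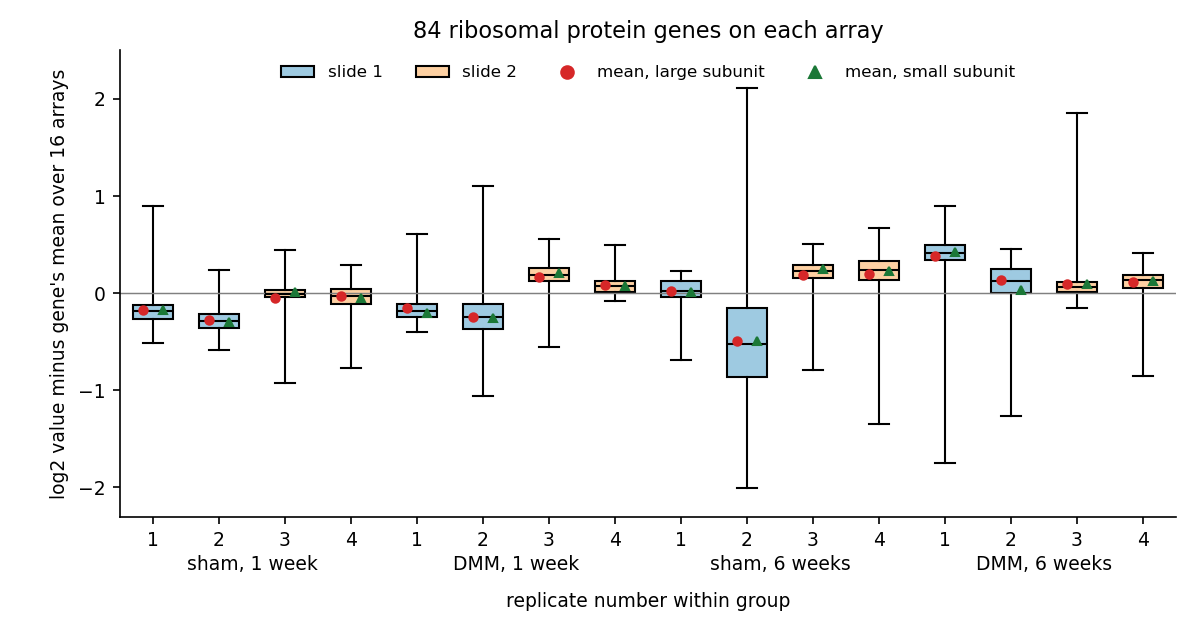
Deviation of each of the 84 genes from its own mean over 16 arrays (log2, vertical axis) on each array (horizontal axis, 4 groups of 4). Boxes span the middle of the genes and whiskers all of them, blue for slide 1 and orange for slide 2, with the mean of the large subunit as a red circle and of the small subunit as a green triangle. Circle and triangle lie at most 0.10 apart on each array, while the boxes shift from -0.49 to 0.40 in mean and widen in replicate 2 of the 6-week sham group.

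At 1 week after destabilization the ribosomal protein genes had means slightly above sham in most cases, and none passed the test. Of 84 members 79 had a higher mean after DMM and 5 a lower one, with a median of 0.092, where the median over all genes was 0.003. The medians were 0.097 in the large and 0.073 in the small subunit. The largest mean differences were those of the paralogs Rpl10l (0.56 ± 0.59, SE), Rpl3l (0.25 ± 0.32) and Rps4l (0.21 ± 0.28), and the lowest those of Rpl37 (-0.18 ± 0.22), the stalk protein gene Rplp2 (-0.04 ± 0.19) and Rps10 (-0.02 ± 0.17). No member passed limma's test (adjusted p = 1.0 for each), which called 0 of 28276 genes (0%). At an unadjusted p under 0.05 limma had 271 genes (0.958%) and 0 members. The 4 values of each group overlapped in all 84 members, where 0.375% of all genes had DMM wholly above and 0.718% wholly below sham.

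That small shift was carried by few arrays. Without replicate 3 of the DMM group the median was 0.002 with 44 of 84 higher, and without replicate 4 it was 0.043. Leaving out sham replicate 1 or 2 gave 0.061 and 0.032, and leaving out DMM replicate 2 gave 0.143. Within slides the medians were 0.019 and 0.152, and 52 members had the same sign in both. On the scale of the authors' deposited table the median was 0.016, with 53 higher.

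At 6 weeks 75 of 84 members had a higher mean in DMM than in sham bone and 9 a lower one, with a median of 0.181 against -0.022 over all genes. Without replicate 2 of the sham group the median was 0.025, with 56 higher and 28 lower, where all genes had 0.021, and the authors' deposited table gave a median of -0.027 with 33 higher, where its median over all genes was -0.037. Without replicate 1 of the DMM group the median was 0.104, with 69 higher. The large subunit had a median of 0.188 and the small one 0.174, and 0.027 and 0.024 without that sham array. Limma called 0 of 28276 genes (0%), while 220 (0.778%) and 0 members had an unadjusted p under 0.05. The groups overlapped in each of the 84 members, where 0.134% of all genes had DMM wholly above sham and 0.364% wholly below.

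**Figure D2:**
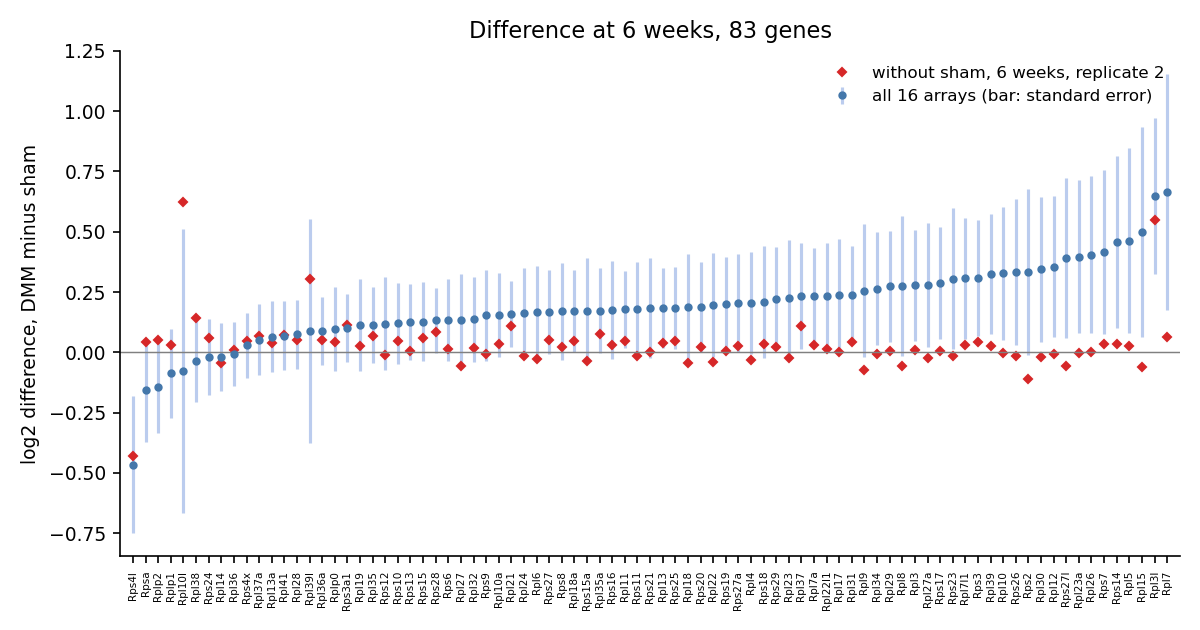
Difference between DMM and sham at 6 weeks (log2, vertical axis) of 83 of the 84 genes, ordered by size. Blue circles with standard errors use all 16 arrays and red diamonds leave out replicate 2 of the sham group. Blue circles climb from -0.47 for Rps4l to 0.67 for Rpl7, and red diamonds lie near 0 for most genes, the median over all 84 being 0.025.

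Rpl7, whose protein lies in the large subunit near the 5S ribosomal RNA, had the largest 6-week difference, 0.67 ± 0.49. Its values were 6.15, 4.01, 6.43 and 6.69 in sham and 6.92, 6.48, 6.11 and 6.44 in DMM bone. A single sham array lay far below the other 7, and without it the difference was 0.06 ± 0.33. Rpl15 followed, at 0.50 ± 0.43, with 6.13, 4.10, 6.44 and 6.47 in sham and 6.67, 6.18, 6.07 and 6.22 in DMM, and -0.06 without that array. The same array was again the low one.

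Rpl5 and Rpl11 encode the proteins that carry the 5S ribosomal RNA into the large subunit and that, when free, bind the p53 inhibitor Mdm2. Rpl5 measured 5.78, 4.27, 6.03 and 6.22 in sham and 6.45, 5.97, 5.73 and 5.99 in DMM bone at 6 weeks, a difference of 0.46 ± 0.38 and of 0.03 without the low array. Rpl11 measured 7.60, 7.25, 7.86 and 7.87 against 8.03, 7.74, 7.75 and 7.77, a difference of 0.18 ± 0.16 and of 0.05 without it. Both genes were lowest in the same sham array and highest in DMM replicate 1. Of 13 genes of the p53 response 6 were higher and 7 lower at 6 weeks (median -0.07), and 7 higher and 6 lower without the low sham array (median 0.01), with 0 at an unadjusted p under 0.05.

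The stalk recruits the elongation factors, and the probes that stand for its genes gave smaller differences. Its base protein gene Rplp0 measured 7.26, 7.31, 7.60 and 7.68 in sham and 7.85, 7.38, 7.45 and 7.55 in DMM bone at 6 weeks, 0.10 ± 0.17 apart. Rplp1 measured 8.10, 8.71, 8.41 and 8.20 against 8.46, 7.98, 8.29 and 8.34, and Rplp2 measured 8.02, 8.79, 8.13 and 7.87 against 8.20, 7.97, 8.05 and 8.01. In sham replicate 2 the probes standing for Rplp1 and Rplp2 were the highest of the 8 arrays, and their differences were -0.09 ± 0.18 and -0.14 ± 0.19, or 0.03 and 0.05 without it. The other Rplp1 probes, at bases 222 and 239 of its RefSeq mRNA, were low on that array (-1.06 and -0.92 against the other 3). They gave larger 6-week differences, 0.24 ± 0.25 and 0.24 ± 0.24, or -0.025 and 0.011 without that array, so the probes of this gene disagreed.

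Among small subunit genes Rps6, whose protein is the classic substrate of the S6 kinases below mTOR, measured 7.01, 6.54, 7.01 and 7.02 in sham and 7.29, 7.11, 6.82 and 6.88 in DMM bone at 6 weeks. Its difference was 0.13 ± 0.17, and 0.01 without the low array. Rps3, at the entry of the mRNA channel, gave 0.31 ± 0.24 (0.04 without), Rps2 0.33 ± 0.34 (-0.11), Rps14 0.46 ± 0.36 (0.03) and Rps7 0.42 ± 0.34 (0.03). Rpsa, which doubles as a laminin receptor, went the other way, with 7.95, 8.95, 8.26 and 8.21 in sham and 8.43, 7.87, 8.23 and 8.21 in DMM bone, a difference of -0.16 ± 0.21 and of 0.04 without replicate 2. That array was the highest of all 16 for Rpsa.

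Those genes mutated in Diamond-Blackfan anaemia that are given here lay within the range of the other members, and they are not all such genes. At 6 weeks Rps19, the gene most often affected, differed by 0.20 ± 0.19 (0.01 without the low sham array), Rpl35a by 0.17 ± 0.18 (0.08), Rps26 by 0.33 ± 0.30 (-0.01) and Rps24 by -0.02 ± 0.16 (0.06). None passed limma's test (adjusted p = 0.999 for each). Genes with a role beyond the ribosome gave 0.06 ± 0.15 for Rpl13a of interferon-regulated translation, 0.20 ± 0.21 for Rpl22 of lymphocyte development, 0.16 ± 0.19 for Rpl24 and 0.20 ± 0.20 for Rps27a, which is made as a fusion with ubiquitin. Without replicate 2 of the sham group these were 0.04, -0.04, -0.02 and 0.03. Rpl38, known for its part in skeletal patterning, measured 7.88, 8.66, 8.04 and 7.95 in sham and 8.18, 8.12, 8.02 and 8.07 in DMM bone, -0.03 ± 0.17 and 0.14 without the outlying array.

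The slides opposed each other at 6 weeks. On slide 1, which held the low sham array, the median difference was 0.497, and on slide 2 it was -0.146, with 77 and 7 of 84 members higher. Only 4 members had the same sign on both slides, 2 higher and 2 lower. Rps4l was one of the latter (-0.70 and -0.23) and Rpl3l one of the former (0.30 and 0.99).

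**Figure D3:**
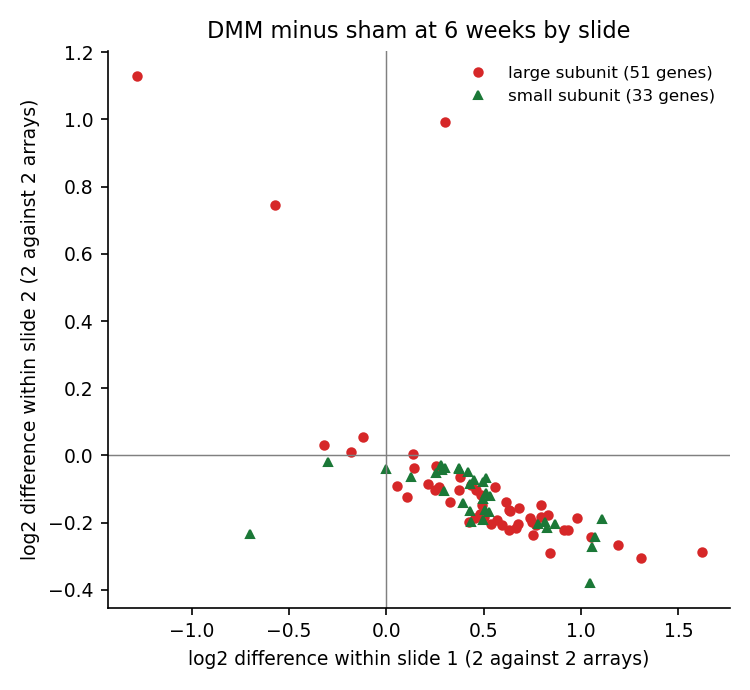
Difference between DMM and sham at 6 weeks (log2) within slide 1 (horizontal axis) and within slide 2 (vertical axis), 2 arrays against 2 on each, for 51 large subunit genes (red circles) and 33 small subunit genes (green triangles). Most points lie to the right of 0 and below 0, with medians of 0.497 and -0.146, and 4 genes share their sign.

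The change of the DMM effect between the times had a median of 0.107 over the members, with 65 higher and 19 lower. Without replicate 2 of the 6-week sham group it was -0.063, with 18 higher and 66 lower, where all genes had 0.035. On the authors' deposited table it was -0.035 with 34 higher, where all genes had -0.031. Limma called 0 of 28276 genes (0%) and had 195 at an unadjusted p under 0.05 (0.69%), 0 of them members. The extremes were Rpl7 (0.59 ± 0.69), Rpl37 (0.42 ± 0.31) and Rpl23a (0.40 ± 0.45) at the top and Rps4l (-0.68 ± 0.40), Rpl10l (-0.63 ± 0.83) and Rpsa (-0.26 ± 0.30) at the bottom. Without that array they were -0.02, 0.29, 0.00, -0.64, 0.07 and -0.06. Among the 1-week arrays, the median was 0.068 without sham replicate 3, and 0.054, 0.044 and 0.190 without DMM replicate 1, 2 or 3. Among the 6-week arrays it was 0.187 and 0.190 without sham replicate 3 or 4, and 0.027 without DMM replicate 1. Within slides it was 0.472 and -0.274.

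Between 1 and 6 weeks the members were higher at the later time after both operations on the scale used here. After sham 76 of 84 were higher (median 0.112, all genes 0.042), and after DMM 81 (median 0.215, all genes 0.026). After sham the direction turned with quantile normalization (median -0.037, 24 higher) and with normexp background correction followed by quantile normalization (-0.040, 26 higher), and after DMM these gave 0.009 with 45 higher and 0.012 with 47 higher. The authors' deposited table gave 0.038 after sham and -0.003 after DMM, where its medians over all genes were 0.037 and 0.003. Limma called 0 of 28276 genes (0%) after either operation. At an unadjusted p under 0.05 it had 2032 genes (7.19%) and 0 members after sham, and 2746 genes (9.71%) and 1 member after DMM.

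After sham the later values lay wholly above the earlier ones for 3 of 84 members (where 2.15% of all genes did so and 3.18% lay wholly below). These were Rps4x (0.20 ± 0.14), Rps3a1 (0.19 ± 0.14) and Rpl36 (0.22 ± 0.13), chosen after their values were seen. Rps4x, the X-linked form of a small subunit protein, measured 6.42, 6.39, 6.56 and 6.49 at 1 week and 6.60, 6.72, 6.65 and 6.70 at 6 weeks. The differences of these 3 were 0.18, 0.17 and 0.21 without replicate 2 of the 6-week group. Other probes of the same genes were low on that array, at -1.26 for Rps4x at base 680, -1.08 for Rps3a1 at base 523 and -0.81 for Rpl36 at base 269 against the other 3. The largest mean differences were those of Rplp1 (0.32 ± 0.18), Rpl19 (0.31 ± 0.19) and Rpsa (0.30 ± 0.21), and the lowest those of Rpl39l (-0.39 ± 0.47), Rps4l (-0.23 ± 0.28) and Rps27l (-0.15 ± 0.33). Without replicate 2 of the 6-week group these 6 were 0.20, 0.39, 0.10, -0.61, -0.27 and 0.29, so that Rps27l turned.

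Without replicate 2 of the 6-week sham group the members stood further above 1 week. The median after sham became 0.279 with 79 higher, where all genes had -0.046, and 15 of 84 members had an unadjusted p under 0.05, where 11.5% of all genes did. None passed limma's adjusted test, and 0 genes of all were called. After DMM, with the same array left out of the pooled spread, 7 of 84 members had an unadjusted p under 0.05, where 14.9% of all genes did. Leaving out replicate 3 or 4 of the 6-week sham group gave medians of 0.025 and 0.022, below the 0.039 and 0.068 over all genes. Leaving out replicate 2 at 1 week gave 0.068, where all genes had 0.041. Within slides the median after sham was -0.031 and 0.254, where all genes had 0.065 and -0.014. After DMM leaving out replicate 1 at 6 weeks gave 0.133.

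No member lay wholly above or below after DMM, where 2.79% and 2.46% of all genes did. The highest means were those of Rpl3l (0.63 ± 0.32), Rpl7 (0.56 ± 0.49) and Rps7 (0.54 ± 0.34). That of Rpl3l was 0.19 without replicate 3 at 6 weeks. The lowest were those of the paralogs Rps4l (-0.91 ± 0.28), Rpl39l (-0.42 ± 0.47) and Rpl10l (-0.37 ± 0.59). The members' median was 0.483 on slide 1 and -0.031 on slide 2, with 28 members higher on both.

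Rps4l, an autosomal relative of Rps4x, was the member with the smallest p-value of any comparison. It measured 1.85, 1.91, 2.12 and 1.52 in sham and 2.15, 1.98, 2.23 and 1.89 in DMM bone at 1 week, and 1.39, 1.73, 1.94 and 1.42 in sham and 1.30, 0.41, 2.08 and 0.82 in DMM bone at 6 weeks. The late DMM values of replicates 1, 2 and 4 lay below all 4 early ones, and replicate 3 lay among them. The difference of -0.91 ± 0.28 between 6 weeks and 1 week after DMM had an unadjusted p of 0.0059 and a limma adjusted p of 0.293. It ranged from -1.22 to -0.61 over 29 alternatives. Many of these could not move it, because Rps4l had 1 probe that passed, above background on all 16 arrays. Leaving out an array of a group not compared, or adding slide as a block, also leaves a difference unchanged by design. At 6 weeks DMM minus sham was -0.47 ± 0.28, and -0.43 without sham replicate 2. It ranged from -0.78 to -0.22 over 29 alternatives, with the same limit. Its probe is annotated to a transcript that RefSeq lists as non-coding, at chr6:148304018-148304077 (mm9, plus strand), 840 bases into it.

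Rpl3l, which replaces Rpl3 in muscle ribosomes, was at the limit of detection. It measured -4.46, -4.83, -4.28 and -4.56 in sham and -4.30, -4.39, -2.57 and -4.29 in DMM bone at 6 weeks, so that its difference of 0.65 ± 0.32 rested on replicate 3 and was 0.21 without it. Of 12 skeletal muscle genes 11 were measured and 6 were above background on all arrays. Their summed signal ran from 4.16 to 9.86 times the 75th percentile in the 6-week DMM group and from 3.39 to 13.4 in the 6-week sham group, and its part in the Rpl3l values was not tested. The common form Rpl3 measured 6.86, 5.94, 7.04 and 7.12 against 7.37, 6.92, 6.87 and 6.92.

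Rpl10l, the testis paralog of the X-linked Rpl10, was high on the array where Rpl10 was low. At 6 weeks Rpl10l measured -2.67, -0.64, -3.54 and -4.10 in sham and -2.88, -2.99, -2.48 and -2.91 in DMM bone, while Rpl10 measured 7.85, 6.76, 8.14 and 8.22 and 8.40, 7.88, 7.96 and 8.05. Replicate 2 of the sham group was the lowest of the 8 for Rpl10 and the highest for Rpl10l. Their differences were -0.08 ± 0.59 and 0.33 ± 0.27, or 0.62 and 0.00 without replicate 2. Rpl39l measured -3.43, -2.34, -3.25 and -2.92 in sham and -4.49, -2.42, -1.94 and -2.74 in DMM bone, with a difference (0.09 ± 0.47) well inside its spread. Rpl22l1 (0.24 ± 0.22), Rpl7l1 (0.31 ± 0.25) and Rps27l (0.39 ± 0.33), a p53 target, followed the main body of members, at 0.01, 0.03 and -0.06 without that array.

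**Figure D4:**
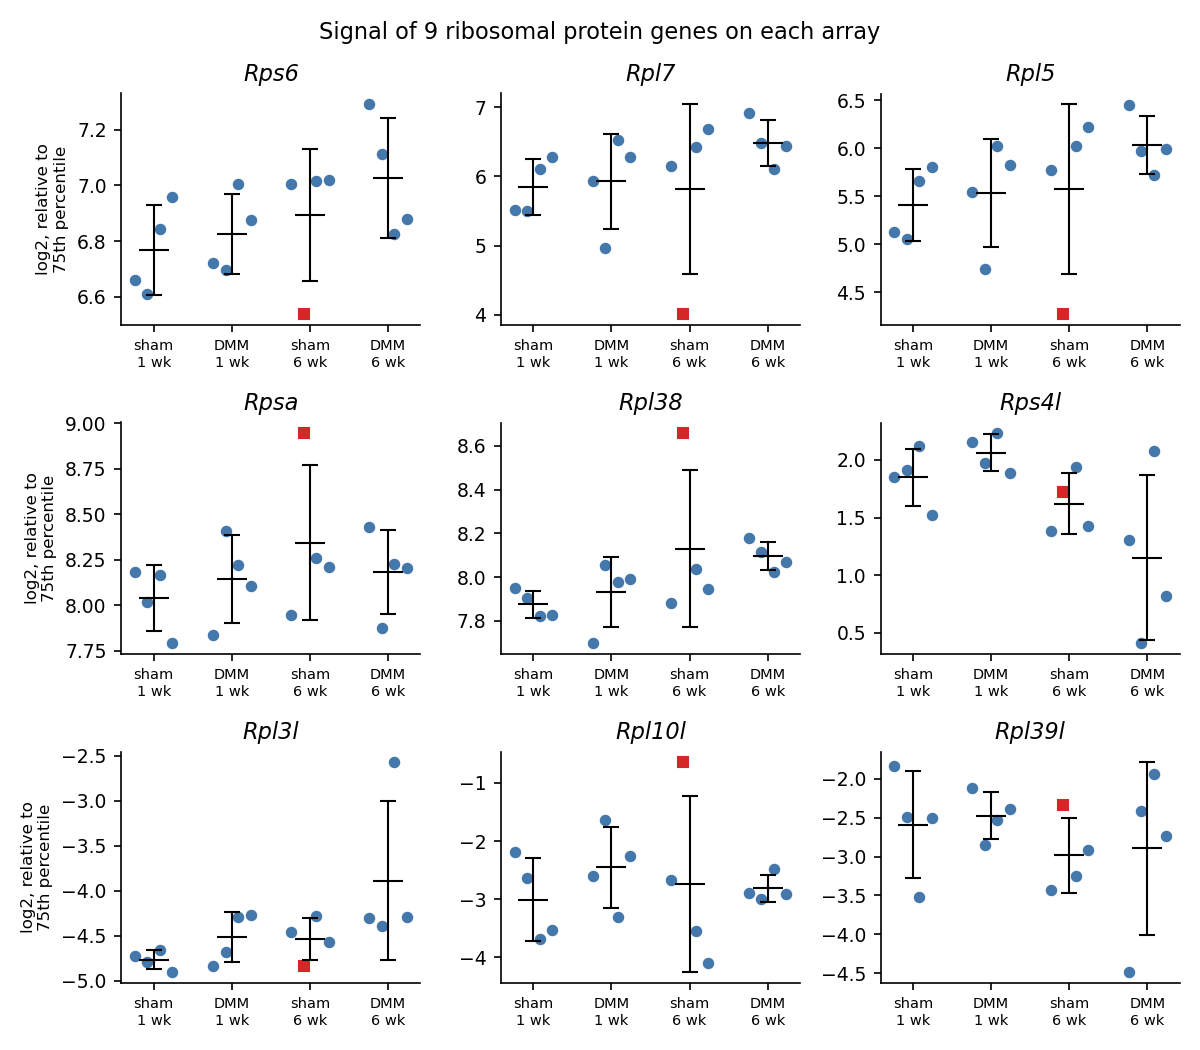
Log2 signal relative to the 75th percentile of the array (vertical axis, scaled for each gene) of 9 genes in 4 groups, 1 point per array with the group mean and SD (n = 4) as black bars. The red square is replicate 2 of the 6-week sham group, at 4.01 for Rpl7 and 4.27 for Rpl5, below all other arrays, and at 8.95 for Rpsa, 8.66 for Rpl38 and -0.64 for Rpl10l, above all others.

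Replicate 2 of the 6-week sham group was low in most members and high in a few. Against the mean of the other 3 arrays of its group the members had a median of -0.69, with 71 lower and 13 higher, and 67 lay below all 3. The median over all genes was 0.20 on this array. Rpl7 (-2.41), Rpl15 (-2.25), Rps27l (-1.79), Rps2 (-1.77), Rpl5 (-1.74) and Rps14 (-1.69) were lowest. Rpl10l (2.80), Rpl39l (0.86), Rpsa (0.81), Rplp2 (0.78), Rpl38 (0.70), Rplp1 (0.47) and Rps24 (0.32) were higher at the probes that stand for them. The large subunit had a median of -0.78 and the small one of -0.64.

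Other genes of translation, and erythroid and cell cycle genes, were low on it too, while 12 neutrophil genes had 6 lower and 6 higher (median -0.09). Medians were -0.95 over 77 mitochondrial ribosomal proteins, -0.72 over 33 ribosome assembly factors, -0.81 over 18 translation factors and other TOP mRNAs, -2.11 over 11 erythroid and -1.62 over 12 cell cycle genes. Cartilage genes had a median of 1.69 and bone genes of 0.50. The mean deviation of the erythroid genes was -0.82 on that array and 0.61 to 0.69 on the other 3 of its group, and it was 0.98 in replicate 1 of the 6-week DMM group, the array with the highest members. At 1 week the erythroid mean deviation ran from -1.19 to 0.055 in sham and from -1.63 to 0.31 in DMM bone. The lowest mean of the members on those arrays was -0.28 in sham and -0.25 in DMM bone, above that of the low array. The erythroid genes' summed signal ran from 181 to 458 times the 75th percentile in the 6-week sham group and from 350 to 596 in the 6-week DMM group. At 1 week it ran from 106 to 284 in sham and from 77.8 to 349 in DMM bone. The part of marrow content and of signal strength in the members' values was not tested.

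Where a member had several probes, the position in the transcript went with how low that array was. The brightest probe of a gene and its neighbours read different stretches of 1 mRNA, and 34 members had a pair at least 100 bases apart on the same RefSeq mRNA. In the low sham array the probe nearer the 5′ end lay further below the other 3 arrays than its partner in 25 of 34 pairs, with medians of -1.30 and -0.80. A pair of probes each of 3 genes, chosen after their values were seen, is shown because they read nearby stretches of 1 mRNA that gave unlike values. They are 60 bases long and printed in the sense of the mRNA with their mm9 position. The span exceeds 60 bases where an intron lies between the ends.
Rpl7 at base 488, chr1:16092774-16092833, minus strand: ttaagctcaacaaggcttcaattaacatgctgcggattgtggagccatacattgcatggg
Rpl7 at base 752, chr1:16091865-16091924, minus strand: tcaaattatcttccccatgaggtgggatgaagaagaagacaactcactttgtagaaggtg
Rps18 at base 367, chr17:34089041-34089202, minus strand: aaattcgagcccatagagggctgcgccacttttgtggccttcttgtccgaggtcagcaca
Rps18 at base 424, chr17:34088984-34089043, minus strand: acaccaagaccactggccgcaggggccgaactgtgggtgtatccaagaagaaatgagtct
Rps3a1 at base 523, chr3:85943041-85943100, minus strand: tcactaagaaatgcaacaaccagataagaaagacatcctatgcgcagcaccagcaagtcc
Rps3a1 at base 738, chr3:85942007-85942438, minus strand: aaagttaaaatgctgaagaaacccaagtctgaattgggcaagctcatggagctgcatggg
Against the other 3 arrays the Rpl7 probes lay at -2.41 and -0.84, the Rps18 probes at -1.38 and -0.70, and the Rps3a1 probes at -1.08 and -0.51. Further probes extended the gradient. The Rps3a1 probe at base 870 lay at 0.05 and the Rps18 probe at base 26 at -1.45. Rps10 (-2.16 at base 233, -0.30 at base 500), Rps19 (-2.45 at 276, -0.79 at 568) and Rpl31 (-2.40 at 374, -0.79 at 645) did the same. Rps27l (0.46 at base 61, -1.79 at 264), Rpl3 (0.32 at 159, -1.07 at 1218) and Rpl15 (-1.39 at 92, -2.25 at 461) did the opposite.

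**Figure D5:**
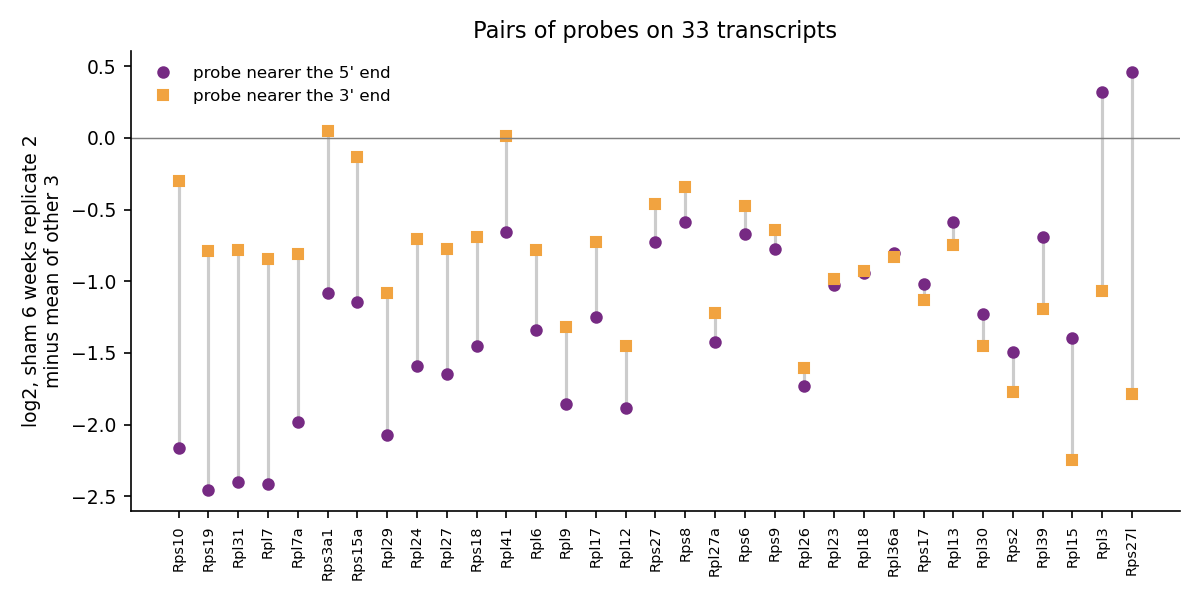
Log2 signal of replicate 2 of the 6-week sham group minus the mean of the other 3 arrays of the group (vertical axis) for 2 probes of each of 33 member transcripts, ordered by the gap. Purple circles are the probes nearer the 5′ end and orange squares those nearer the 3′ end. Circles lie below squares in 24 of these 33, as in -2.16 against -0.30 for Rps10, and above them most of all in Rps27l, 0.46 against -1.79.

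The 6-week difference followed the probe in the same way. It was larger at the 5′ probe in 25 of 34 pairs, with medians of 0.31 and 0.20, and -0.01 at both ends without the low sham array. For Rpl7 the 2 probes printed gave 0.67 ± 0.49 and 0.18 ± 0.23, and 0.06 and -0.03 without it. Over the 16 arrays, the gap between the 5′ and the 3′ probe, relative to its own mean, was also negative in replicates 1 and 2 of the 1-week sham group (medians -0.16 and -0.15, in 31 and 32 of 34 pairs) and in replicate 2 of the 1-week DMM group (-0.21, in 29). It was -0.32, in 24 of 34, on the low sham array.

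Other transcripts gave another median. Over 5249 pairs of other genes the median gap was 0.23 on the low sham array, with 41.1% below 0. It was 0.05 and -0.11 in replicates 1 and 2 of the 1-week sham group. In replicate 2 of the 1-week DMM group it was 0.16, with 38% below 0. The difference between members and other transcripts was not tested. The kind of transcript also went with the value. Of 144 member probes named for a RefSeq mRNA 129 were lower on that array (median -0.84), where 53.8% of 24576 other such probes were (median -0.12). Of 19 member probes named for an Ensembl transcript 12 were lower (median -0.19), where 46.9% of 5652 others were (median 0.12). Of 16 named for other accessions 9 were lower (median -0.11), where 33.8% of 9269 others were (median 0.64). The Ensembl probes of Rpl13 at base 1514 (2.08), Rps19 at base 2343 (1.04) and Rpl7 at base 1411 (0.68) were higher.

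Probes of 1 member could therefore disagree. At 6 weeks 8 members had probes whose differences had opposite signs and lay over 0.5 apart, the widest being Rpl13 (-0.84 to 0.18), Rpl7 (-0.11 to 0.67), Rps19 (-0.18 to 0.58), Rps15a (-0.46 to 0.25) and Rps27a (-0.41 to 0.20). With the mean of all probes of a gene the members' median was 0.194, and with the probe nearest the 5′ end it was 0.208. Mouse ribosomal protein genes have many processed copies, and probes can bind their transcripts as well. The files placed the probes of Rps27 and Rps29 on another chromosome than RefSeq's gene, so these 2 are uncertain. The other 82 matched the chromosome alone, and their position along it was not compared with that of the gene.

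The wider pathway showed no call. Of 33 assembly factors, which build the subunits in the nucleolus, 25 were higher after DMM at 6 weeks (median 0.13, and -0.09 without the low sham array), and of 77 mitochondrial ribosomal proteins 70 (0.23, and -0.04). Of 18 translation factors and other TOP mRNAs 15 were higher (0.15, and -0.03). RNA polymerase I and 5S factors, which make the ribosomal RNA, had 6 of 13 higher (-0.01, and -0.11). Each of these lists had 0 genes at an unadjusted p under 0.05, and limma called none. These lists were read on the 75th percentile scale alone.

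Genes of mTOR signalling and TOP control were mixed, with 12 of 19 higher at 6 weeks (median 0.05, and -0.10 without the low array). Larp1, the binder of TOP mRNAs, gave -0.35 ± 0.16 after DMM at 6 weeks (unadjusted p = 0.0479, limma adjusted p = 0.999) and -0.46 ± 0.16 at 6 weeks against 1 week after DMM (unadjusted p = 0.0117, adjusted p = 0.341). Myc, a driver of ribosome production, gave -0.21 ± 0.17 and -0.49 ± 0.17 in the same comparisons. Both genes were named for their small p in this list. At 6 weeks 1 of the 19 genes had an unadjusted p under 0.05 in limma, where 0.778% of all genes did. Between the times after DMM 2 of 19 did, where 9.71% of all genes did. Leaving out replicate 2 of the 6-week sham group left Larp1 at -0.35 at 6 weeks. In the assembly list Nop56 was higher at 6 weeks than at 1 week after sham (0.32 ± 0.14, unadjusted p = 0.0416, limma adjusted p = 0.683). It was 1 of 33 assembly factors with an unadjusted p under 0.05 there, where 7.19% of all genes had one.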

How the data were processed

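The deposited scanner files hold 1-colour spot intensity values, background-corrected by the authors' scanner software, Agilent Feature Extraction 10.7.3.1, per the file headers. The authors' deposited value table holds log2 values of 50815 probes with array medians of 7.24 to 7.34. Its normalization is not given in the sources used here, and limma 3.20.9 is named in the submitters' processing notes. Here log2 intensity minus the 75th percentile of each array was tested on all 28276 gene names with limma 3.58.1 in R 4.3.3 (lmFit, eBayes, Benjamini-Hochberg adjustment at 0.05), with 1 mean per group over all 16 arrays, after leaving out control probes and outlier spots and keeping probes well above background on at least 4 arrays. The method was tested on simulated data with independent noise and with larger changes than those of the members. That test therefore does not cover shifts as small as theirs or genes that move together. Figures were drawn with matplotlib 3.10.9.

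The members and lists were chosen with earlier results of these data known. Named genes were the 3 highest and 3 lowest members of each comparison, members of known role, all paralogs, and up to 5 members with disagreeing probes. Of other lists, up to 3 genes with the smallest unadjusted p were eligible. Alternatives covered scaling, background, filter, probe, slide and leaving out each array. The number of arrays limits the precision. Single values of 1 member are not reported here, and it is left out of the plots that label genes.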

Additional observations from a re-analysis of the deposited data

Results flagged for a closer look

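Single arrays stood far from the other 3 of their group in 16 of 180 groups of 4 tested with Dixon's ratio (the gap to the nearest array over the whole range, above its 95% critical value). Chance gives about 1 in 20 such groups, and members share arrays.

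Replicate 2 of the 6-week sham group was the low array in Rps6 (0.975), Rps27l (0.937), Rpl6 (0.88), Rpl23a (0.874), Rps15a (0.867), Rpl15 (0.857), Rps3 (0.847) and Rps7 (0.847).

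Replicate 1 of the 6-week DMM group was the high array in Rpl24 (0.947), Rpl3 (0.906), Rpl11 (0.891), Rpl22 (0.863), Rps15a (0.852), Rpl13a (0.845) and the mean of the large subunit (0.868).

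Replicate 3 of the 6-week DMM group was the high array in Rpl3l (0.944), the muscle paralog.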

How the results depend on the processing

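No call was made for a member under any alternative in which limma was run. The alternatives within a slide gave differences of means only, without a test. Leaving out 1 array at a time, the members' median ranged from 0.002 to 0.143 for DMM against sham at 1 week, from 0.025 to 0.26 at 6 weeks, from -0.063 to 0.19 for the change of the DMM effect, from 0.022 to 0.279 between the times after sham and from 0.133 to 0.289 after DMM. The large minus small subunit value ranged from 0.006 to 0.033, from -0.039 to 0.045, from -0.038 to 0.017, from -0.059 to 0.013 and from -0.02 to 0.009 in the same order. Limma called 0 to 1 genes at 6 weeks, 0 to 1 between the times after sham and 0 to 27 after DMM, the 27 without replicate 3 of the 1-week DMM group, and 0 in the other comparisons.

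Within slide 1 the members' median was 0.497 at 6 weeks, 0.472 for the change of the DMM effect and 0.483 between the times after DMM, and within slide 2 it was -0.146, -0.274 and -0.031. Large minus small was 0.087 and -0.039 at 6 weeks within slides 1 and 2, against 0.014 with both, and -0.045 after DMM within slide 2, against 0.001. After sham it was 0.016 with quantile normalization and 0.014 with normexp followed by quantile normalization, against -0.048. The cause was not tested. The alternatives on the 5′ or 3′ probe, and the printing of each count without replicate 2 of the 6-week sham group, were chosen after seeing the data. Of 41 named members, 39 had another sign at 6 weeks under at least 1 alternative, and 21 with 1 array left out. Rpl37 and Rpl3l were each read by 1 probe that passed, and it was near background, which limits their values. A low signal of 1 probe does not show that the gene's mRNA is scarce. No paired analysis was possible because the replicate numbers follow the order of the records and pair no samples.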

Other observations

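Genes of some marrow cells stood higher at 6 weeks than at 1 week. All 11 erythroid genes had higher means after sham (median 0.77, and 1.30 without replicate 2 of the 6-week sham group) and after DMM (median 1.39). All 12 B lineage genes had higher means after sham (median 0.81, and 0.91 without that array) and 11 of 12 after DMM (median 0.64). All 12 cell cycle genes had higher means after DMM (median 0.61), and 11 of 12 after sham (median 0.23), or 12 of 12 without that array (median 0.53). A rise was not confined to these lists. Cartilage genes were higher in 8 of 10 after sham (median 1.68, and 1.38 without that array) and in 6 of 10 after DMM (0.29). Skeletal muscle genes were higher in 10 of 11 after sham (median 0.64, and 0.61 without that array) and in 9 of 11 after DMM (0.54).

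Neutrophil genes gave another picture, with 2 of 12 higher and 10 lower after sham (median -0.32, and -0.20 without that array) and 6 higher and 6 lower after DMM (median 0.01). Bone genes had lower means in 11 of 14 after each operation (medians -0.34, or -0.49 without that array, and -0.54). None of these genes passed limma's adjusted test. Of the 11 erythroid genes 10 had an unadjusted p under 0.05 after DMM, where 9.71% of all genes did. After sham 4 did, where 7.19% of all genes did, and 10 without that array, where 11.5% did.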
